A study of Flaveria robusta and Flaveria ramosissima and Flaveria trinervia with 18 samples.

Results

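The genes described here are those whose transcripts stood higher under high light in leaves of the C4 species Flaveria trinervia while changing by less than 2-fold in the C3–C4 intermediate F. ramosissima and in the C3 species F. robusta. They numbered 216 of the 30040 genes in the table, which is 0.719%. A gene was taken if its mean was at least 1 TPM in each species, if every high-light library of F. trinervia lay above every control library of that species, if the F. trinervia mean was at least 10 TPM under high light and at least 2 times its control mean, and if the ratio of the means lay above 0.5 and below 2 in both other species. TPM is a transcript abundance per unit of gene length, scaled so that each library has the same nominal total. The genes were thus chosen by measured values of the light contrast in all 3 species, and every light contrast of these genes is given below as a description with no test.

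RNA was taken from mature, newly expanded leaves of F. trinervia, F. ramosissima and F. robusta that had been under high light of 1400 µmol m-2 s-1 or under control light of 500 µmol m-2 s-1, with 3 libraries for each of the 6 groups and 18 in all. The growth text in the labels also names a chamber light of 200 µmol m-2 s-1, below both levels, and does not say how it relates to them. The labels give no genotype, plant age, time of exposure or time of harvest, and the extra light came from a lamp built for the purpose. They also do not say whether the 3 libraries of a group came from separate plants, and the p-values below therefore speak only of the spread between these libraries, part or all of which may be technical. Summed TPM per library ranged between 903641 and 929124. Read depth cannot be recovered from TPM and is unknown here, and no counting interval was computed. In whole leaves, fewer cells of a type and less RNA per cell cannot be told apart.

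C4 leaves fix carbon first in the mesophyll and release it around Rubisco in the bundle sheath, a division of labour between 2 cell types that C3 leaves lack and that intermediates show in part. Leaves of all plants answer strong light with protection of the photosystems, repair of photosystem II, removal of reactive oxygen and a shift in the balance between light harvesting and carbon fixation. The genes of the table carry numbers only, with no name, sequence or annotation, so none of the 216 can be placed in these processes, the leaf label could not be checked against leaf markers, and no sequence is shown. For 3 of them the number is printed, and the others are given by their rank in light ratio or in level.

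The genes that met the rule came from a small set. A mean of at least 1 TPM in each species was reached by 10651 genes, called detected genes below, and 238 of these met the F. trinervia conditions. Of the 238, 216 (90.8%) were within 2-fold in both other species, against 83.4% of all detected genes. These shares are not matched for level, since only 5731 of the detected genes reached 10 TPM under high light in F. trinervia. The other 22 of the 238 fell outside the 2-fold limits. They did so in F. robusta alone (9 genes), in F. ramosissima alone (10 genes) or in both (3 genes). Most of them went down under high light in the other species, with a ratio of 0.5 or less for 9 genes in F. ramosissima and 9 genes in F. robusta, and a ratio of 2 or more for only 4 genes in F. ramosissima and 3 genes in F. robusta. Detected genes whose high-light libraries all lay above the control libraries in F. trinervia made up 10.8% of the detected genes, and those whose high-light libraries all lay below made up 48.8%. The same rule with the F. trinervia direction turned round and the ratio inverted gave 345 genes. Which direction held more genes depended on the scaling of the libraries. With median ratios within each species the rule gave 493 genes and the inverted rule 105, with 25.5% of the detected genes above and 22.3% below without overlap, and with quantile normalization it gave 304 genes and the inverted rule 158.

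The 216 genes were abundant leaf transcripts. Their median level in F. trinervia was 159 TPM under high light, with a range of 10.6 to 1298 TPM, and 61.0 TPM under control light, with a range of 3.32 to 562 TPM. Under high light 87 of them stood between 10 and 100 TPM, 123 between 100 and 1000 TPM and 6 above 1000 TPM in F. trinervia, whereas none was above 1000 TPM and 22 were below 10 TPM under control light. In F. ramosissima their median level was 92.2 TPM under high light and 111 TPM under control light, and in F. robusta it was 111 TPM under high light and 124 TPM under control light. The median control level of all detected genes was 14.5 TPM in F. trinervia, 8.57 TPM in F. ramosissima and 13.5 TPM in F. robusta. The floor of 10 TPM in F. trinervia is part of the rule.

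Together the 216 genes took 4.19%, 7.23% and 4.19% of the listed TPM in the high-light libraries of F. trinervia, against 1.72%, 1.64% and 2.79% in its control libraries. The mean share was 5.20% ± 1.75 under high light and 2.05% ± 0.638 under control light (SD, n = 3 each). High-light library 2 and control library 3 were the highest of their groups, and the groups did not overlap. The rule set this separation for each gene, so that of the summed share is given as a description. In F. ramosissima the share was 3.57%, 2.70% and 3.78% under high light, against 4.92%, 3.19% and 4.10% under control light. In F. robusta it was 3.38%, 3.06% and 4.09% under high light, against 4.94%, 3.02% and 4.93% under control light. In both of these species the high-light mean was the lower of the pair and the groups overlapped. The total was not held by a few genes, since the 10 with the highest level took 20.4% of the summed TPM of the 216 in F. trinervia under high light.

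**Figure D1:**
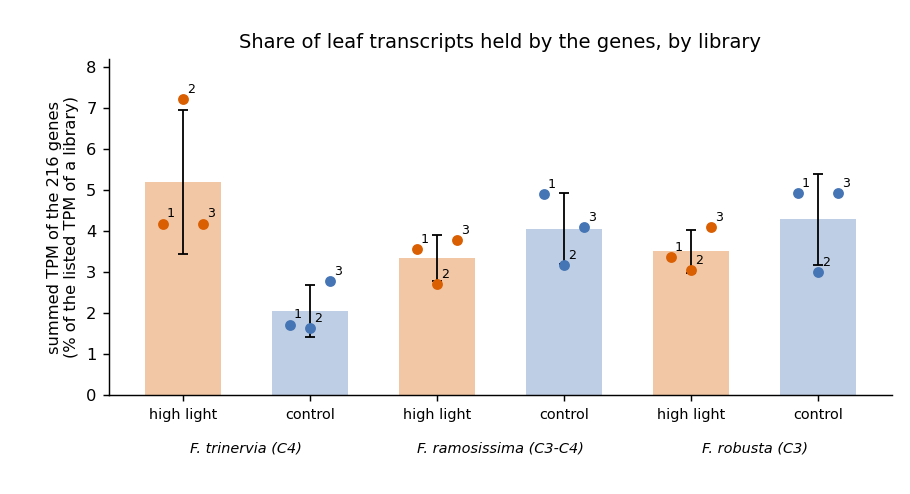
Summed TPM of the 216 genes as a percent of the listed TPM of each library (vertical axis), by species and light level. Points are libraries with their replicate number, bars are means and error bars are SD (n = 3). The F. trinervia high-light libraries lie between 4.19% and 7.23%, above its control libraries, which lie between 1.64% and 2.79%. The rule set this separation for each gene.

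The size of the light ratio in F. trinervia was modest for most of the genes. It ran from 2.00 to 6.47 with a median of 2.56, and the middle part of the genes, between the quartiles, lay between 2.21 and 2.90. A ratio below 2.5 was found for 97 genes, 2.5 to 3 for 73, 3 to 4 for 42 and 4 or more for 4. On the log2 scale the median was 1.36, whereas the median of all detected genes in the same contrast was -0.34 on TPM as deposited. With median-ratio scaling these medians were 1.72 for the 216 genes and 0.02 for the detected genes. The gap between the groups was narrower than the ratio of the means. The lowest high-light library stood at a median of 1.36 times the highest control library, was at least 2 times as high for 14 genes, and was less than 1.1 times as high for 16 genes.

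Several genes lay close to the limits that chose them. The 3 genes just inside the F. trinervia ratio limit had ratios of 2.005, 2.006 and 2.01, and the 3 just outside had 1.997, 1.997 and 1.995. The 3 lowest high-light means that passed were 10.6, 10.7 and 13.0 TPM, and the nearest that did not were 9.82, 9.01 and 8.26 TPM. At the upper limit in F. ramosissima the ratios just inside were 1.99, 1.61 and 1.58 and those just outside 2.11, 3.21 and 3.29, and at the lower limit 0.520, 0.524 and 0.548 stood inside and 0.495, 0.478 and 0.467 outside. In F. robusta 1.75, 1.67 and 1.66 stood inside the upper limit and 2.06, 2.48 and 2.77 outside, and at the lower limit 0.506, 0.528 and 0.544 stood inside and 0.494, 0.469 and 0.444 outside. The lowest species means inside were 2.02, 2.22 and 2.59 TPM, and those outside were 0.588, 0.273 and 0.205 TPM. A further 704 detected genes met every condition but the 2-fold ratio, 9 met every condition but the separation of the libraries, and 14 met every condition but the 10 TPM floor.

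Within the limits set for them, the other species leaned downward under high light. The median ratio was 0.768 in F. ramosissima, with a range of 0.520 to 1.99, and 0.795 in F. robusta, with a range of 0.506 to 1.75. A ratio above 1 was found for 36 genes (16.7%) in F. ramosissima, against 34.9% of the detected genes, and for 43 genes (19.9%) in F. robusta, against 44.8% of the detected genes. On the log2 scale the medians were -0.38 in F. ramosissima and -0.33 in F. robusta for the 216 genes, beside -0.16 in F. ramosissima and -0.05 in F. robusta for all detected genes. Both ratios were below 1 for 156 genes and both above 1 for 19. Only 36 genes stayed between 0.8 and 1.25 in both species, so steady here means a change of under 2-fold and not an equal level.

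**Figure D2:**
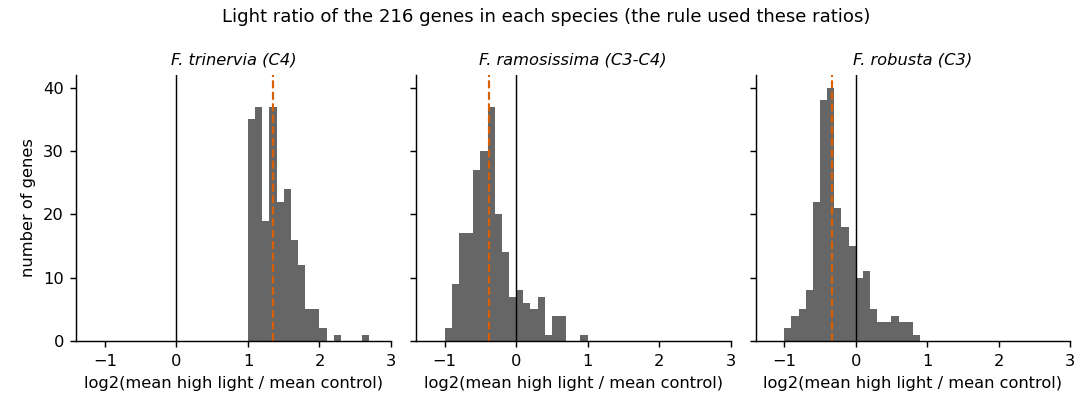
Number of genes (vertical axis) by log2 ratio of the high-light mean to the control mean (horizontal axis) in each species, for the 216 genes; dashed lines mark the medians and solid lines equal means. The medians are 1.36 in F. trinervia, -0.38 in F. ramosissima and -0.33 in F. robusta, and the limits at 1 in F. trinervia and at -1 and 1 in the others come from the rule.

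Few of these shifts separated the libraries. In F. ramosissima all high-light libraries stood above all controls for 6 genes (2.78%) and under all controls for 19 (8.80%), and the groups overlapped for 191. The shares among all detected genes in that species were 5.07% above and 10.7% below. In F. robusta the high-light libraries lay above for 9 genes (4.17%) and below for 21 (9.72%), beside 5.84% above and 9.76% below among all detected genes, and the groups overlapped for 186. The shares of the 216 genes thus lay at or under those of the detected genes in both directions, in a contrast that the rule had limited.

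The gene with the largest light ratio in F. trinervia was Gene26138. It had 135, 187 and 133 TPM under high light, against 8.59, 9.53 and 52.3 TPM under control light, a ratio of the means of 6.47 and a log2 ratio of 2.69. Control library 3 stood well above the other control libraries and still below every high-light library. Without it the log2 ratio was 4.07, and without both that library and high-light library 2 it was 3.89. In F. ramosissima the gene had 37.3, 36.7 and 162 TPM under high light and 141, 41.4 and 40.7 TPM under control light, so 1 library of each group stood at several times the level of the others and the groups overlapped. In F. robusta it had 57.4, 57.3 and 46.9 TPM under high light and 41.6, 28.5 and 50.4 TPM under control light, which also overlapped.

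The genes next in ratio differed in how evenly their libraries sat. The second had 19.0, 20.6 and 23.8 TPM under high light in F. trinervia, against 2.35, 2.25 and 8.58 TPM under control light, a ratio of 4.81. Its high-light libraries lay close together, and control library 3 again stood above the other controls. The third had 56.2, 216 and 63.1 TPM under high light, against 16.7, 15.5 and 50.3 TPM under control light, a ratio of 4.06. Here the lowest high-light library was only slightly above the highest control library, and high-light library 2 stood far above both others of its group. The fifth had 43.0, 27.6 and 44.1 TPM under high light, against 10.3, 8.35 and 10.3 TPM under control light, a ratio of 3.96, and the sixth had 14.6, 11.1 and 13.4 TPM under high light, against 3.84, 2.37 and 3.76 TPM under control light, a ratio of 3.92. In these last genes high-light library 2 was the lowest of its group and control library 3 did not stand out. The ninth in ratio had 3.77.

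The most abundant of the genes was Gene04130, with 1247, 1437 and 1210 TPM under high light in F. trinervia, against 467, 470 and 750 TPM under control light. The ratio of the means was 2.31 and the log2 ratio 1.21, and the groups were far apart relative to their spread except for control library 3. In F. ramosissima it had 358, 339 and 393 TPM under high light and 527, 415 and 393 TPM under control light. In F. robusta it had 335, 478 and 329 TPM under high light and 397, 332 and 437 TPM under control light, so that every F. trinervia library lay above every F. robusta library at both light levels, while it overlapped F. ramosissima under control light and stood above it under high light. The second most abundant gene had 1212, 1207 and 1142 TPM under high light in F. trinervia, against 391, 381 and 511 TPM under control light, and its F. ramosissima libraries went the other way, with 489, 490 and 707 TPM under high light, against 1087, 949 and 828 TPM under control light. The third had 1096, 1157 and 1135 TPM under high light, against 373, 381 and 688 TPM under control light, and was more abundant still in F. ramosissima, with 3541, 3797 and 2501 TPM under high light and 3406, 3234 and 828 TPM under control light. Its level in F. trinervia thus stayed well under that of most F. ramosissima libraries at both light levels.

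**Figure D3:**
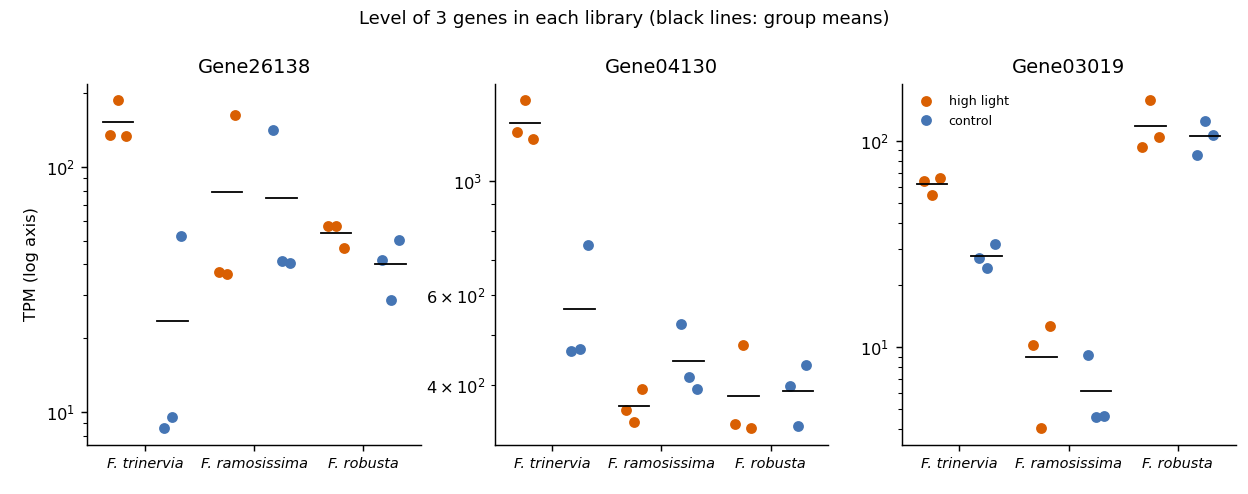
TPM of Gene26138, Gene04130 and Gene03019 in each library (vertical log axis), with high light left of control in each species; points are libraries and black lines are group means (n = 3). In F. trinervia all 3 high-light libraries lie above all 3 control libraries for each gene, which the rule required. Gene03019 is lower in every F. ramosissima library than in every F. robusta library.

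The position of F. trinervia among the species changed with light for much of the set. Under high light it had the highest mean of the 3 species for 148 genes (68.5%), beside 39.0% of the detected genes. It had the lowest there for 15 (6.94%), beside 21.9% of the detected genes. Under control light it had the lowest mean for 158 genes (73.1%), beside 20.4% of the detected genes. It had the highest there for 20 (9.26%), beside 47.0% of the detected genes. For 97 genes it was lowest under control light and highest under high light. The share of the detected genes with that change of place was not computed. The rule picks genes that are high in F. trinervia under high light and low under control light, so these orders are partly chosen and are given without a test.

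Against F. robusta, the F. trinervia level stood at a median of 1.55 times under high light and at 0.460 times under control light, beside 0.930 times under high light and 1.09 times under control light for the detected genes. Against F. ramosissima it stood at 1.91 times under high light and at 0.545 times under control light, beside 1.59 times under high light and 1.68 times under control light for the detected genes. Every F. trinervia library lay above every F. robusta library for 99 genes under high light and for 16 under control light, and below for 20 under high light and 100 under control light. Among the detected genes the shares above were 28.0% under high light and 36.1% under control light, and the shares below were 28.1% under high light and 24.0% under control light. Every F. trinervia library lay above every F. ramosissima library for 127 genes under high light and for 20 under control light, and below for 16 under high light and 89 under control light. The detected genes gave 53.5% above under high light and 55.0% under control light, and 16.4% below under high light and 13.1% under control light.

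The 216 genes shared a pattern among the replicates that was not itself a condition of the rule. The rule used these values, however, so the pattern is partly chosen. A high value in high-light library 2 helped a gene to pass, and a high value in control library 3 made passing harder. In F. trinervia, high-light library 2 was the highest of its group for 188 genes (87.0%), against 40.0% of the detected genes, and control library 3 was the highest of its group for 208 (96.3%), against 53.6% of the detected genes. Both held for the same 188 genes, whereas both held for 34.7% of the detected genes. High-light library 2 stood at a median of 1.80 times the mean of the other high-light libraries, beside 0.976 times for the detected genes, and was at least 2 times as high for 92 genes. Control library 3 stood at a median of 1.78 times the mean of the other control libraries, beside 1.07 times for the detected genes, and was at least 2 times as high for 61 genes. The part of these libraries in the choice of the genes was measured by leaving them out. The rule without high-light library 2 gave 140 genes, 124 of them among the 216, and without control library 3 it gave 389 genes, 215 of them among the 216. Without both it gave 286 genes, 200 of them among the 216. For the 216 genes as they stand, high-light libraries 1 and 3 over control libraries 1 and 2 gave a median ratio of 2.58 and a range of 1.68 to 14.8, with at least 2 for 202 genes.

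The pattern of moving together extended in part to the other species, whose replicate spread the rule did not use. In F. robusta under high light, neither the share with library 2 lowest nor the spread exceeded that of the detected genes. In F. ramosissima library 2 was the lowest of its group for 158 genes under high light and for 163 under control light, which is 73.1% and 75.5% of the set, beside 52.0% of the detected genes under high light and 59.9% under control light. In F. robusta library 2 was the lowest for 147 genes under high light and for 176 under control light, which is 68.1% and 81.5% of the set, beside 76.0% of the detected genes under high light and 44.1% under control light. Library 2 was thus the lowest for most of the set in all 4 groups, and it was also the lowest for most detected genes in each of them but F. robusta under control light. The median SD of log2(TPM + 1) within a group was 0.50 under high light and 0.47 under control light in F. trinervia, beside 0.16 at both light levels for the detected genes. It was 0.51 under high light and 0.46 under control light in F. ramosissima (detected genes 0.29 and 0.32), and 0.31 under high light and 0.49 under control light in F. robusta (detected genes 0.42 and 0.28).

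**Figure D4:**
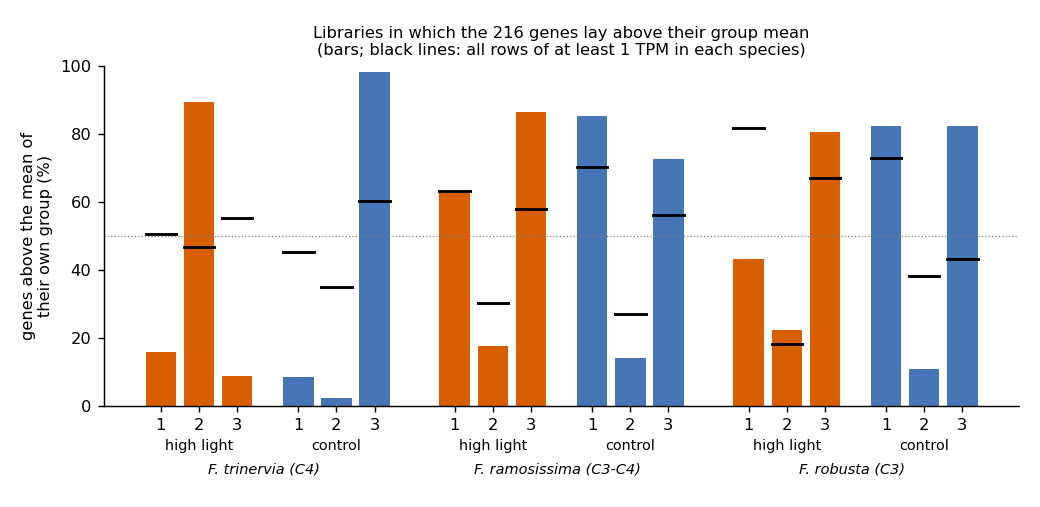
Percent of the 216 genes above the mean of their own group in each library (bars, vertical axis), by replicate number, light level and species; black lines give the same percent for all 10651 detected genes and the dotted line marks 50%. F. trinervia high-light library 2 (89.4%) and control library 3 (98.1%) stand high, and library 2 stands low in all 4 groups of F. ramosissima and F. robusta (10.6% to 22.2%).

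Deviations from the group mean were correlated between genes over the 12 libraries of F. ramosissima and F. robusta. The median correlation between 2 of the 216 genes was 0.48, beside 0.274 for all detected genes, 0.233 for the 5731 detected genes with at least 10 TPM under high light in F. trinervia and 0.208 for the 22 genes that met the F. trinervia conditions without being steady elsewhere. Within F. ramosissima alone it was 0.571 for the set and 0.199 for the detected genes, and within F. robusta alone 0.587 for the set and 0.422 for the detected genes. The points are libraries that each gene shares, and genes of 1 library are not independent, so these values are descriptions with no test. The set of 188 genes that had high-light library 2 and control library 3 at the top in F. trinervia had a median correlation of 0.601 in the other species, and the other 28 genes one of 0.0634.

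These 28 genes also had other light ratios in the other species. Their median ratio was 1.16 in F. ramosissima and 1.06 in F. robusta, with 19 of 28 above 1 in F. ramosissima and 17 of 28 in F. robusta. The 188 genes had a median of 0.752 in F. ramosissima and 0.780 in F. robusta, with 17 of 188 above 1 in F. ramosissima and 26 of 188 in F. robusta. The ratio in F. trinervia was 2.22 at the median of the 28 genes and 2.59 at that of the 188, and the median high-light level was 68.8 TPM for the 28 genes and 167 TPM for the 188. This split was made after the values were seen and carries no test. The labels do not say whether the libraries differed in plant, harvest time, leaf age or handling.

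Of the 133 neighbouring numbers of the set that belonged to a detected gene, none belonged to the set, beside 2.03% of all detected genes. A number between genes of the set was counted for each of them. At a share of 2.03% only a few would be met among 133, so nothing is read from the absence. Numbers above 19000 were carried by 63 of the 216 (29.2%), beside 43.1% of the detected genes. The labels do not say what order the numbers follow.

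The comparison of F. ramosissima with F. robusta asks whether the genes differed in level between the intermediate and the C3 species, and it is the only contrast here that the rule did not use, since the rule sets no value of either species against the other. It was tested with limma on log2(TPM + 1) over 18911 genes, with Benjamini-Hochberg adjustment and a threshold of 0.05. Under high light 36 of the 216 genes were called higher in F. ramosissima (16.7%) and 51 lower (23.6%), beside 29.3% higher and 40.7% lower among all tested genes. Under control light 43 were called higher (19.9%) and 37 lower (17.1%), beside 29.2% higher and 36.8% lower among all tested genes. The tested genes include 4016 that averaged 1 TPM or more in only 1 species. Among the 10651 detected genes 13.2% were higher and 49.0% lower under high light, and 12.3% were higher and 43.4% lower under control light. Called lower genes were thus a smaller share of the set than of either background at both light levels, and the share called higher lay under the one background and over the other. For each gene the fit pooled the spread over all 6 groups. The set had the larger median spread in each group but F. robusta under high light. A larger spread lowers the share called, so these shares do not measure the species difference alone.

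The balance of these calls depended on how libraries were scaled. With TPM as deposited, the median log2 difference of all tested genes was -0.36 under high light and -0.26 under control light, and that of the 216 genes was -0.23 under high light and -0.16 under control light. With libraries scaled by median ratios, the medians were 0.34 under high light and 0.33 under control light over all tested genes, and 0.57 under high light and 0.52 under control light in the set. The calls in the set were then 87 higher and 18 lower under high light, beside 42.9% higher and 24.0% lower over all tested genes, and 86 higher and 17 lower under control light, beside 41.2% higher and 22.2% lower. Under either scaling the median of the set stood above that of all tested genes, while its sign changed. The detected genes with at least 10 TPM under high light in F. trinervia share the level limits of the set. They do not share its limits on the light ratios and were not otherwise matched to it in level. Their medians were -0.57 under high light and -0.50 under control light as deposited, and 0.20 and 0.14 with median-ratio scaling. The set stood above these too. Without F. robusta control library 2 the number called lower under control light was 56 in place of 37.

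Most calls were made at both light levels. At both, 31 genes were called higher in F. ramosissima and 33 lower, none was called in opposite directions, and 113 were called at neither. The rule kept the light ratio of each gene within 2-fold in both species, so this agreement between light levels is partly chosen. The matching shares of all tested genes were not computed. The median log2 difference of those called higher was 1.14 under high light and 1.23 under control light, and of those called lower -1.39 under high light and -1.41 under control light. Of the genes called higher, the groups did not overlap for 36 under high light and 40 under control light. Of those called lower, they did not overlap for 48 under high light and 35 under control light. Called or not, F. ramosissima lay above F. robusta without overlap for 19% of the set under high light and 21% under control light. The share of the detected genes was 13% at both light levels. It lay below without overlap for 27% of the set under high light and 22% under control light. The share of the detected genes there was 45% at both light levels. Across the set the log2 difference ran from -3.66 to 5.66 under high light and from -3.95 to 5.59 under control light, which is wide beside its median.

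**Figure D5:**
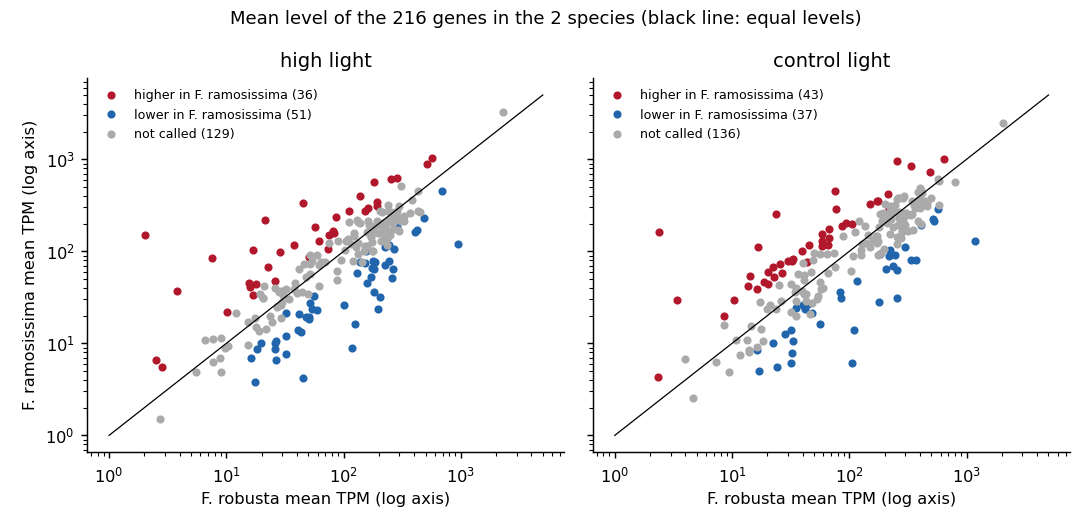
Mean TPM of the 216 genes in F. ramosissima (vertical log axis) against F. robusta (horizontal log axis) under high light (left) and control light (right), n = 3 libraries each; the line marks equal levels and colours mark the limma calls on TPM as deposited. Under high light 36 genes are called higher and 51 lower in F. ramosissima, and under control light 43 higher and 37 lower.

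The gene lowest in F. ramosissima relative to F. robusta was Gene03019. Under high light it had 10.2, 4.05 and 12.7 TPM in F. ramosissima, against 93.1, 157 and 104 TPM in F. robusta, a log2 difference of -3.66 (SE 0.33, limma adjusted p = 1.09e-07). Under control light it had 9.18, 4.58 and 4.64 TPM in F. ramosissima, against 85.8, 125 and 107 TPM in F. robusta, a log2 difference of -3.95 (SE 0.33, limma adjusted p = 4.3e-08). The species were apart by far more than the spread of their libraries. In F. trinervia it had 64.3, 54.5 and 65.9 TPM under high light, against 27.2, 24.3 and 31.7 TPM under control light, so its C4 level lay between those of the other species, and high-light library 2 was the lowest of its group.

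The gene highest in F. ramosissima relative to F. robusta, which ranked 132nd in light ratio and 86th in high-light level, was close to the floor of the rule in F. robusta. Under high light it had 132, 160 and 165 TPM in F. ramosissima, against 1.97, 2.13 and 1.98 TPM in F. robusta, a log2 difference of 5.66 (SE 0.19, limma adjusted p = 6.26e-13). Under control light it had 185, 155 and 149 TPM in F. ramosissima, against 2.67, 1.78 and 2.77 TPM in F. robusta, a log2 difference of 5.59 (SE 0.19, limma adjusted p = 7.28e-13). In F. trinervia it had 193, 275 and 188 TPM under high light, against 83.7, 80.5 and 109 TPM under control light. It was thus abundant in the intermediate and C4 leaves and near the 1 TPM limit of the rule in the C3 leaves at both light levels.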

How the data were processed

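Leaf RNA was sequenced as paired-end reads of 150 bp. The authors deposited 1 table of TPM values for the 18 libraries, and the submitters' processing notes name RSEM and edgeR without versions. No source used here gives the aligner, the reference or how genes were paired between species. The paper supplied with the series does not describe this experiment. The table held 30041 rows, of which 1 ran on into the next and was left out, and 929 of the others were at 0 in every library. Columns were read as high light (H) and control (L). Every column of values was matched to a library.

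Means, ratios and ranks were computed from TPM as deposited (Python version 3.11.15, pandas version 2.3.3). Species were compared in R version 4.3.3 with limma version 3.58.1 (two-sided, linear model with empirical Bayes moderation along an abundance trend) on log2(TPM + 1), which understates the change of low genes. The fit held 18911 genes, those averaging 1 TPM or more, in 6 groups with 12 residual degrees of freedom. The fit was tested on simulated data. Benjamini-Hochberg adjustment ran over all tested genes. A TPM is a share of its library, so when some genes go up the rest must go down. Alternatives were other scalings, pseudocounts, filters and limits of the rule, a replicate block, and each library left out.

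The members and lists were chosen with earlier results of these data known. Printed numbers are the genes with the largest F. trinervia ratio, with the highest F. trinervia level under high light, and with the most negative difference of F. ramosissima from F. robusta under control light among those called without overlap. Others are given by rank, and the gene highest in F. ramosissima was chosen after its values were seen. Named gene lists could not be used, as no gene has a name.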

Additional observations from a re-analysis of the deposited data

How the results depend on the processing

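The number of genes that met the rule was 493 with median-ratio scaling (215 of them among the 216), 429 when changes were counted from the median change of each species (215 shared; chosen after seeing the data), 46 with a limit of at least 3 times, and between 140 and 389 with 1 library left out. It stayed within 1.5 times of 216 with quantile normalization (304, of which 190 were shared), means + 1 TPM (214), medians (217, of which 179 were shared), steady limits of 0.67 and 1.5 (144) and a floor of 5 TPM (209). The median log2 ratio in F. trinervia was 1.72 with median-ratio scaling and 1.03 to 1.64 with 1 library left out. Gene26138 had a log2 ratio of 3.83 by medians, and Gene04130 one of 1.57 with median-ratio scaling; the cause was not tested. For F. ramosissima against F. robusta, median-ratio scaling gave 87 higher and 18 lower under high light and 86 higher and 17 lower under control light, and quantile normalization gave 63 lower under control light. With 1 library left out, the counts under high light were 31 to 39 higher and 36 to 53 lower, and under control light 34 to 45 higher and 29 to 56 lower. Other pseudocounts, filters and the 2 species fitted alone kept every count within 1.5 times. The balance of calls did turn in several settings. More genes were higher than lower under high light with median-ratio scaling and without F. ramosissima high-light library 2 (37 higher, 36 lower). More were lower than higher under control light with quantile normalization (37 higher) and without F. robusta control library 2 (34 higher). The same held under control light without F. ramosissima control library 1 (34 higher, 46 lower) or control library 3 (37 higher, 39 lower). It also held there without F. trinervia high-light library 2 (43 higher, 45 lower).

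Same-numbered libraries of F. ramosissima and F. robusta had correlations of deviations of -0.08 to 0.08 over all tested genes, so the numbers were not used as pairs. Over the 216 genes alone they were 0.18 to 0.43 under control light and -0.10 to 0.32 under high light. Within F. trinervia, same-numbered high-light and control libraries had correlations of 0.64, -0.57 and -0.57 for replicates 1, 2 and 3 over all tested genes. Over the 216 genes these values were 0.52, -0.56 and -0.57. Shared deviations of the F. trinervia libraries were thus not limited to the set, and their cause was not tested. With a replicate block the counts were 38 higher and 54 lower under high light and 46 higher and 45 lower under control light. Without depth, low values near 1 TPM carry an unknown error.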
